A study of Sus scrofa with 17 samples.

Results

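The genes described here encode the sarcomere, the Z-disc that anchors it, and muscle proteins that respond to stretch, in the pressure-loaded right ventricle of the pig. They were chosen by symbol from a list of 38 genes, with no measured value in the rule but with earlier results of these data known. Of these, 35 had a row under that symbol in the count table, and all 35 passed the filter on low counts, among 15884 genes tested of 35670 in the table. Rows for TTN, LDB3 and FHL2 were not analysed here. The 35 genes comprised 9 of the thin filament, 5 of the thick filament and M-band, 15 of the Z-disc and its links, 4 of the stretch response and 2 myofibril assembly factors.

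RNA was sequenced from cardiac tissue of 17 pigs, described in the series text as right ventricular myocardium under pressure overload. Mononuclear cells from umbilical cord blood (UCB-MNC) had been given in several doses to 7 pigs (multidose) and in 1 dose to 5 (single dose), while 5 received vehicle (vehicle control). The cells were given into the myocardium, per the series title, and each library is a different animal. Every group carried the pressure overload, so no unloaded heart serves as a reference, and the labels give no breed, age, sex, cell number or harvest time. Sex, weight and batch were recorded by the study but are not among the labels. Library totals ran from 21754800 to 61144663 counts. The library names of 5 dosed animals (multidose 1 to 4 and single dose 1) begin with M1, and those of the other 12 animals, all controls among them, begin with M8 or M9. Some names end in the suffix R. Among the M1 libraries only multidose 4 carries it, and among the M8 or M9 libraries only multidose 5 and vehicle control 3 lack it. What the names and the suffix mean is not stated. Of the M1 libraries, 4 held under 25000000 counts, and the shallowest M8 or M9 library held 40621934. Among dosed animals the M1 libraries averaged 26381152 ± 8215252 counts (SD, n = 5) and the others 46320558 ± 4535144 (SD, n = 7). These means differed (p = 0.00253, exact permutation test, two-sided, 0.0202 after adjustment over 8 tests). The totals overlapped, because multidose 4, an M1 library, held 40969168 counts and single dose 3, the shallowest of the others, 40621934. Cardiomyocyte markers were expressed in every library, with MYH7 from 9587 to 36866 CPM (counts scaled to library size). RYR2 ran from 293 to 870 CPM and ACTC1, itself a member, from 254 to 4361 CPM. The summed atrial markers with enough counts ran from 135 to 4930 CPM, and the summed skeletal muscle markers stayed between 1.01 and 4.32 CPM.

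In a sarcomere, thin filaments of actin, tropomyosin and troponin slide along thick filaments of myosin, and calcium binding to troponin starts the contraction. The Z-disc joins the thin filaments of neighbouring sarcomeres through alpha-actinin and passes force sideways through filamin C and desmin. It also holds sensors of stretch, LIM and ankyrin repeat proteins that move between the Z-disc and the nucleus or bind damaged actin. In rodent hearts, ANKRD1 transcripts are known to rise with load. In bulk tissue, fewer cardiomyocytes and less RNA per cardiomyocyte cannot be told apart.

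The 35 genes together took between 6.05% and 8.57% of all counts in a library. Their share was 7.55% ± 0.709 (SD, n = 5) in the vehicle controls, 7.35% ± 0.921 (SD, n = 5) after a single dose and 7.45% ± 0.627 (SD, n = 7) after multiple doses. The multidose and control shares differed by -0.106 percentage points (p = 0.792, exact permutation test, two-sided, 0.835 after adjustment over 8 tests), which is within the spread between animals. The members differed widely in how much they varied. The highest library exceeded the lowest by 1.52-fold for PDLIM5, a PDZ and LIM protein of the Z-disc, and by 17.2-fold for ACTC1, which encodes cardiac alpha-actin. The median of that ratio over the members was 3.13. LMOD3, a leiomodin mostly known from skeletal muscle, held only 0 to 33 counts per library, so that its values rest on very few reads.

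Extremes gathered in a few animals. Single dose 1 was the lowest of the 17 libraries for 10 members, among them the filamin gene FLNC, the desmin gene DES, ANKRD1, XIRP2 and FHL1. Multidose 4 was the lowest for 8, among them the myosin-binding protein C gene MYBPC3, the alpha-actinin gene ACTN2 and XIRP1. The 5 M1 libraries held the lowest value of 21 of the 35 members and the highest value of 5. Such counts were not made over all genes, so they describe the animals and not a trait of these members. Among controls, vehicle control 3 was the highest library for 8 members (MYBPC3, MYOM1, MYOM3, ACTN2, MYPN, SYNPO2, FLNC and XIRP1). The same animal was the lowest for 6 others (TNNT2, TNNI3, TNNC1, TPM1, MYOZ2 and CAPZA2). Vehicle control 4 was the highest for LMOD2, MYOZ2, MYOT, PDLIM3, DES and ANKRD1 and the lowest for ACTC1 and MYOM3.

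**Figure D1:**
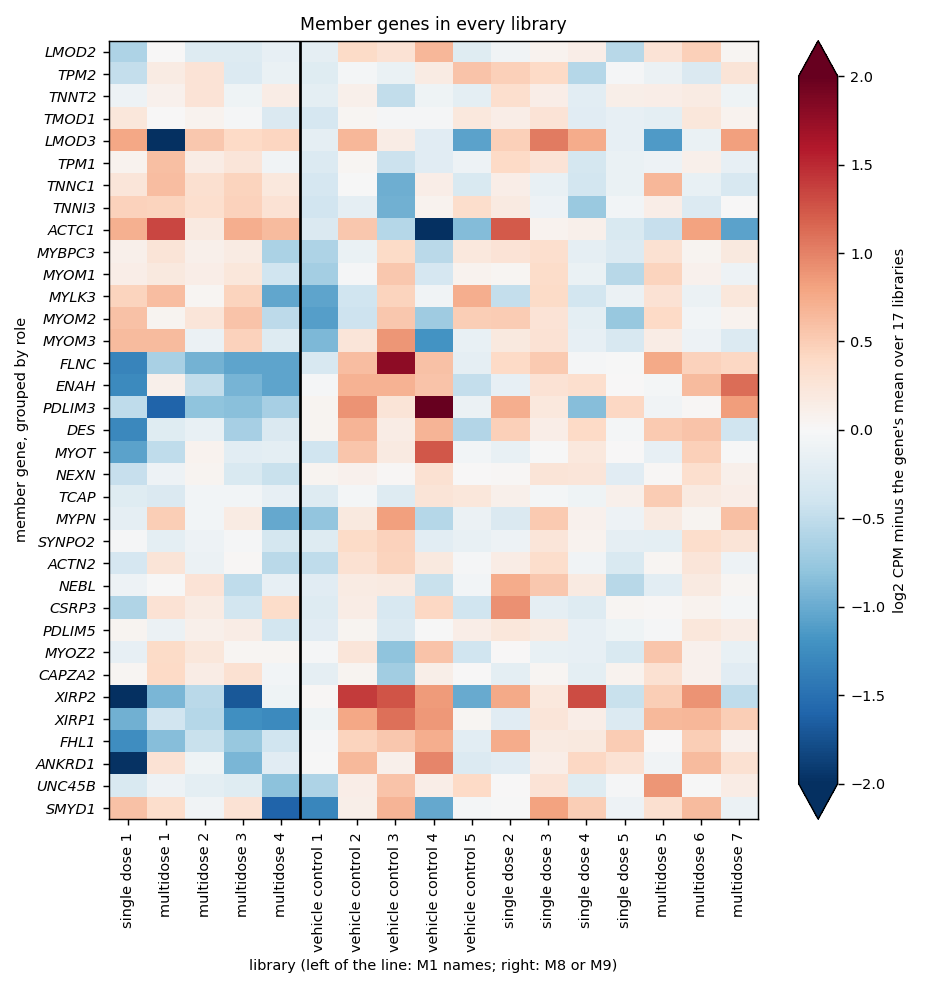
Expression of the 35 members (rows, grouped by role) in the 17 libraries (columns), as log2 CPM minus the gene's mean over all libraries; the line separates the 5 M1 libraries on the left from the 12 M8 or M9 libraries, and colours saturate at 2 in either direction. FLNC, PDLIM3 and the stretch-response rows are blue in most M1 libraries, while the thick filament and M-band rows are not.

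Members of the same role did not all vary together. After group and library name class were removed, the 5 thick filament and M-band genes (MYBPC3, MYOM1, MYOM2, MYOM3 and MYLK3) varied together across animals. All 10 of their pairs had a positive Pearson correlation of log2 CPM, from 0.55 to 0.92. The strongest pair was MYBPC3 with MYOM2, which encodes an M-band protein that links thick filaments, at 0.92 over 17 libraries and 0.96 over the 12 M8 or M9 libraries without that adjustment. SMYD1 and UNC45B, a methyltransferase and a chaperone of myosin folding, varied with them, with a median correlation of 0.81 over 10 pairs. Thin filament genes did not form such a block, with a median of 0.16 over 36 pairs that ran from -0.39 to 0.68. These pairs include those of LMOD3, which held only 0 to 33 counts per library. Across roles, DES with XIRP2 stood at 0.86, and the strongest pair of a thin filament gene with a Z-disc gene at 0.88. All 6 stretch-response pairs were positive, with a median of 0.49. TNNI3, the inhibitory troponin, ran opposite to XIRP2, at -0.57, the most negative of 595 pairs. ANKRD1 with MYOM2 stood at -0.55. Each correlation compares genes measured in the same libraries, which share depth and composition, and is a description with no test.

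Multidose against vehicle control addresses the effect of repeated cell doses on expression in the loaded ventricle. None of the 35 members passed (0 at an adjusted p under 0.05 by edgeR, against 0% of all genes tested). DESeq2 and limma-voom called 0 members as well. At an unadjusted p under 0.05 there were 2 members, TNNC1 higher and PDLIM3 lower, where 12.6% of all genes were at that level (6.74% higher and 5.83% lower). No member had groups that did not overlap (background 0.271%). The member values had a median of 0.053 on the log2 scale, beside -0.0051 for all genes. Of the members 20 had a value above 0, as did 49.3% of all genes. By role, 7 of 9 thin filament genes and all 5 thick filament and M-band genes had positive values, and all 4 stretch-response genes had negative ones, under each of 3 scalings. Of the Z-disc genes, 7 of 15 were positive. With name class as a covariate, 25 of the 35 members had a positive value, and the median was 0.14. There 2 of the 4 stretch-response values turned positive, FHL1 at 0.023 and ANKRD1 at 0.23, and XIRP1 stood at -0.095 and XIRP2 at -0.086.

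Positions are spans of whole genes on Sscrofa11.1 in RefSeq. Among thin filament genes, TNNC1 (ENSSSCG00000011441, chromosome 13, 34591571 to 34594320), the calcium-binding subunit of troponin, measured 5375, 6755, 3423, 7393 and 5476 CPM in vehicle controls 1 to 5. In the 7 multidose animals it ran from 5435 to 10715 CPM with a median of 8455. Vehicle controls 1 and 3 lay below the lowest multidose value, and the other 3 controls lay within the multidose range. On the log2 scale the difference was 0.54 with an SE of 0.21 (edgeR adjusted p = 0.373), and 0.37 when the M8 and M9 libraries alone were compared. ACTC1 (ENSSSCG00000004803, chromosome 1, 136281119 to 136286551), the sarcomeric actin gene of the heart, measured 1419, 2515, 1169, 254.2 and 945.6 CPM in the controls. After multiple doses it ran from 826 to 4361 CPM with a median of 2672. The groups overlapped broadly, and vehicle control 4 was far below every other animal. Multidose minus control came to 0.94 with an SE of 0.46 (edgeR adjusted p = 0.404). It was 0.69 without that animal and 0.43 in the lowest of 31 alternative fits. TPM1, alpha-tropomyosin, stood at 0.32 with an SE of 0.17 (edgeR adjusted p = 0.428), and at 0.13 in the lowest of 31 alternative fits. The inhibitory troponin TNNI3 stood at 0.38, TNNT2, which binds tropomyosin, at 0.25, and the pointed-end capping gene TMOD1 at 0.00089. Thick filament and M-band values ran from 0.086 for MYLK3, the kinase of the cardiac myosin light chain, to 0.24 for MYOM2.

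At the Z-disc, PDLIM3 (ENSSSCG00000015796, chromosome 15, 46516178 to 46546658), an alpha-actinin-associated LIM protein, had the smallest p of all members. It measured 124.2, 224.3, 143.5, 486 and 111.2 CPM in controls 1 to 5 and ran from 39.5 to 215 CPM with a median of 76 after multiple doses. Vehicle control 4 alone stood far above the rest, while the 4 lowest multidose animals were the 4 with M1 names. The difference of -1.12 with an SE of 0.42 (edgeR adjusted p = 0.370) on the log2 scale became -0.55 in the M8 and M9 libraries alone and -0.58 without vehicle control 4. FLNC, filamin C, which crosslinks actin at the Z-disc and the sarcolemma, stood at -0.81 with an SE of 0.42 (edgeR adjusted p = 0.426), at -0.16 in the M8 and M9 libraries alone and at -0.34 without vehicle control 3. CAPZA2, a subunit of the capping protein that anchors barbed ends of actin, stood at 0.27 with an SE of 0.14 (edgeR adjusted p = 0.438), and at 0.15 without vehicle control 3. Among the stretch-response genes XIRP1, an actin-binding protein of intercalated discs and damaged sarcomeres, had a mean of 469.7 CPM (SD 253, n = 7) after multiple doses against a mean of 736 CPM (SD 253, n = 5) in controls. The difference of -0.65 (SE 0.35) on the log2 scale was -0.021 in the M8 and M9 libraries. FHL1, a four-and-a-half-LIM protein that binds titin, stood at -0.53 (SE 0.29), at -0.14 there and at 0.023 with name class as a covariate. ANKRD1, the cardiac ankyrin repeat protein and a classic stretch-induced gene, is named here after its values were seen. It had a mean of 4744 CPM (SD 1494, n = 7) after multiple doses against a mean of 5842 CPM (SD 2119, n = 5) in controls, a log2 difference of -0.30 with an SE of 0.33 (edgeR adjusted p = 0.704). XIRP2 stood at -0.86 (SE 0.51). The Z-disc genes not yet given ran from -0.47 for MYOT to 0.19 for MYOZ2, with ACTN2 at -0.13 and DES at -0.30.

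Among related genes outside the members none passed either. The lists were 32 other sarcomere and sarcolemma-link genes, 25 load-responsive regulators and their targets, and 11 myofibril chaperones (0 in either direction by edgeR for each list). Their medians were -0.01, -0.18 and -0.26 on the log2 scale. The smallest p of these lists was that of MYL3, the ventricular essential light chain, at 0.50 with an SE of 0.16 and an edgeR adjusted p of 0.366. Summed endothelial markers ran from 981 to 1541 CPM after multiple doses and from 1116 to 1846 CPM in controls. Summed fibroblast markers ran from 3398 to 9617 CPM against 4345 to 7522 CPM. Of the 7 multidose libraries 4 had M1 names, and library totals were lower after multiple doses (mean 34899250 against 53093598 counts, p = 0.0101, exact permutation test, two-sided, 0.0404 after adjustment over 8 tests). The part of these in the member values was not tested beyond the values from M8 and M9 libraries.

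**Figure D2:**
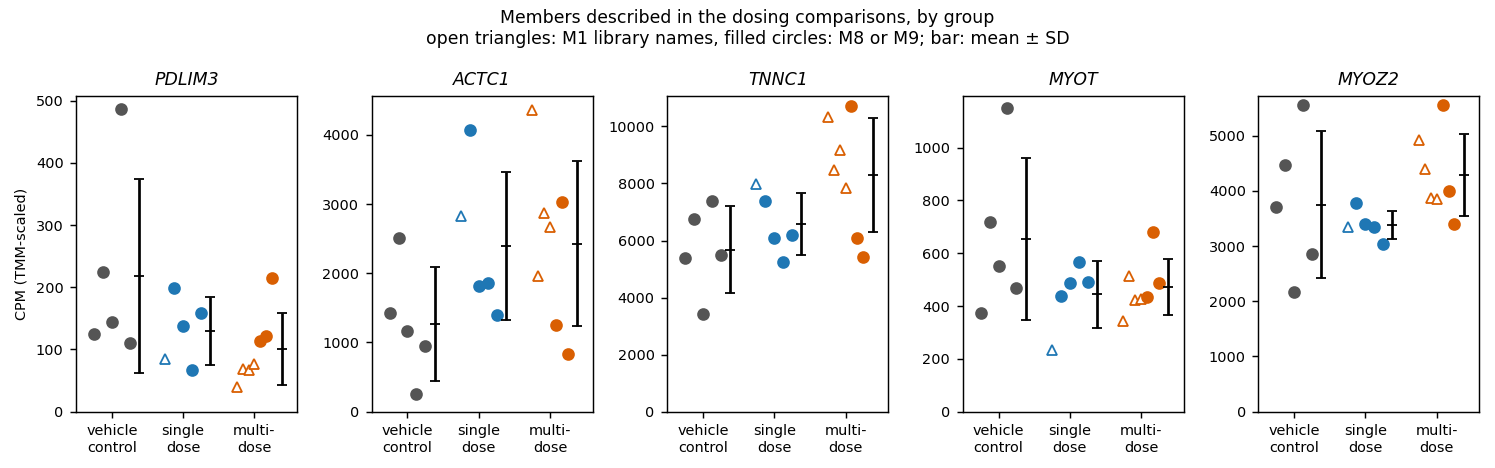
CPM of 5 members in every library by group, with the mean and SD of each group as a bar; open triangles are M1 libraries and filled circles M8 or M9 libraries. For PDLIM3 the M1 triangles sit at the bottom of the multidose group and 1 control, at 486 CPM, stands far above the others, and for ACTC1 the same control lies lowest, at 254 CPM.

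Single dose against vehicle control addresses the effect of 1 dose. No member passed (0 by edgeR, and 0 by DESeq2 and limma-voom), and 0 members had an unadjusted p under 0.05, a level reached by 5.26% of all genes (adjusted calls over all genes 0%). Of the members, 17 were positive (50.4% of all genes) and 18 negative. None had groups that did not overlap (background 0.875%). The median was -0.032 on the log2 scale, beside 0.0025 for all genes. As in the multidose comparison, which shares these controls, 7 of 9 thin filament values were positive and all 4 stretch-response values negative, of which FHL1 turned to 0.086 in the M8 and M9 libraries alone. XIRP1 had the smallest p. It measured 450.4, 824.5, 1034, 874.5 and 494.7 CPM in the controls and 246.2, 410.8, 569.4, 528.7 and 395.6 CPM in single dose 1 to 5. Vehicle controls 2, 3 and 4 exceeded every single dose animal, while controls 1 and 5 lay inside the single dose range. Single dose minus control came to -0.77 with an SE of 0.38 (edgeR adjusted p = 0.891) on the log2 scale. It was -0.63 in the M8 and M9 libraries alone (edgeR adjusted p = 0.999), a fit that leaves out single dose 1.

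MYOT (ENSSSCG00000014324, chromosome 2, 139899245 to 139919095), myotilin, which crosslinks actin filaments at the Z-disc, measured 372.4, 718.5, 553.1, 1151 and 468.9 CPM in the controls and 232.7, 439.9, 488.2, 567.8 and 492.6 CPM after a single dose. Vehicle control 4 was highest and single dose 1 lowest of all 17 animals. The difference of -0.56 with an SE of 0.28 (edgeR adjusted p = 0.891) on the log2 scale was -0.25 without that control. LMOD2, a leiomodin that lengthens thin filaments, stood at -0.40 (SE 0.21), or -0.26 without vehicle control 4, and PDLIM3 at -0.75 (SE 0.46), or -0.22 without it. On the positive side stood ACTC1, at 2827, 4065, 1817, 1858 and 1397 CPM in single dose 1 to 5 and 0.92 (SE 0.49) on the log2 scale. It was followed by TPM1 at 0.26 (SE 0.18), TNNT2, the troponin that binds tropomyosin, at 0.22 (SE 0.15), and SMYD1 at 0.53 (SE 0.37). TPM1 was 0.17 without single dose 2, and SMYD1 was 0.33 without vehicle control 1 and 0.83 without vehicle control 3. Adjusted p-values of the 35 members lay between 0.891 and 0.995 by edgeR. The other sarcomere list, the load-responsive list and the chaperone list held 0 calls by edgeR, with medians of -0.019, -0.11 and -0.18.

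Multidose against single dose addresses the dosing schedule. No member passed (0 by edgeR, DESeq2 and limma-voom), 0 had an unadjusted p under 0.05, and the background shares over all genes were 0% and 2.11%. Of the members 20 had a positive value (50.5% of all genes), and none had groups that did not overlap (background 0.0693%). The median was 0.02, beside 0.0018 for all genes. Member values lay between -0.59 and 0.34 on the log2 scale. MYOZ2, calsarcin, which tethers calcineurin to the Z-disc, had the smallest p. It measured 3340.3, 3779, 3398, 3345 and 3044 CPM in single dose 1 to 5 and ran from 3396 to 5553 CPM with a median of 4004 in the multidose group. The lowest multidose animal lay inside the single dose range, and the other 6 lay above it. The difference was 0.34 (SE 0.20) on the log2 scale, with TNNC1 at 0.33 (SE 0.21), CAPZA2 at 0.19 (SE 0.14) and LMOD2 at 0.22 (SE 0.20). Negative values were those of FHL1 at -0.41 (SE 0.29), NEBL (nebulette, which links actin to the Z-disc) at -0.27 (SE 0.20), LMOD3 at -0.59 (SE 0.51) and XIRP2 at -0.45 (SE 0.51). Single libraries moved these values. NEBL was -0.10 without single dose 2, -0.18 without single dose 3 and -0.41 without single dose 5. XIRP2 was -0.05 without single dose 4, -0.71 without single dose 1, -0.30 without multidose 3 and -0.72 without multidose 6. FHL1 was -0.24 without single dose 2 and -0.62 without single dose 1, and LMOD3 -0.38 without multidose 1. LMOD2 was 0.13 without single dose 1, 0.13 without multidose 6 and 0.14 without single dose 5. With the name class as a covariate, FHL1 stood at 0.033 and XIRP2 at 0.22, so that both signs turned. Of the Z-disc values 8 of 15 were positive with TMM scaling and 6 of 15 with upper-quartile scaling. Each member had an adjusted p of 0.99998 by edgeR. The 3 related lists held 0 calls, with medians of 0.012, -0.013 and -0.0052.

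**Figure D3:**
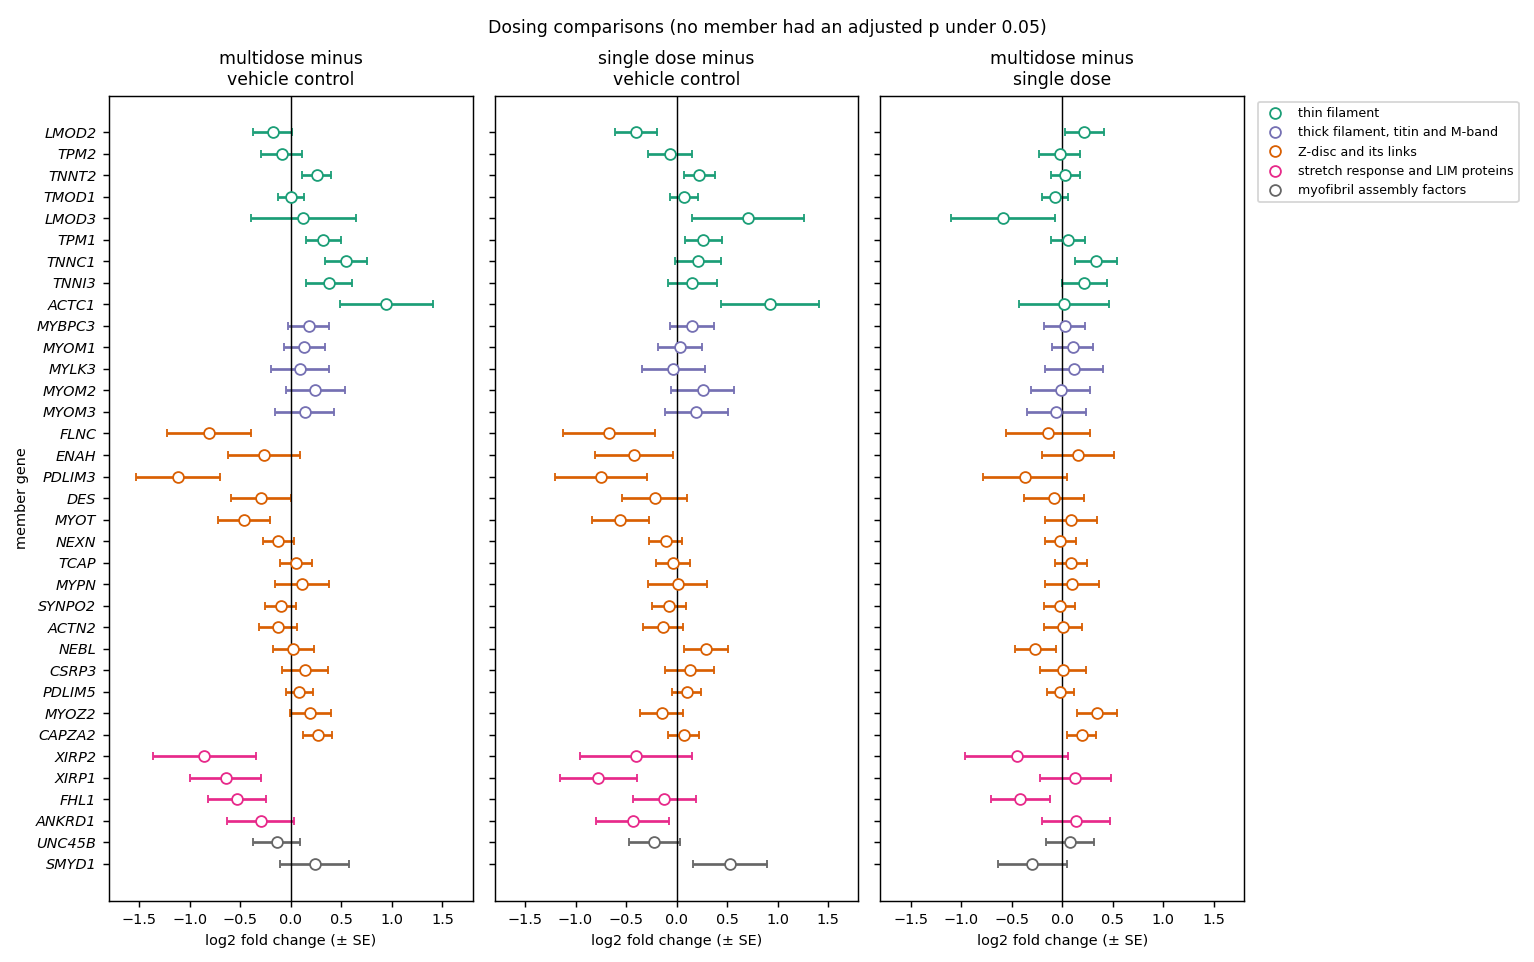
Log2 fold change and SE (edgeR) of each of the 35 members in the 3 dosing comparisons, coloured by role, with open points because no adjusted p was under 0.05. Stretch-response genes lie left of 0 in both comparisons with vehicle control, and most thin filament genes lie right of it.

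The libraries with M1 names differed from those with M8 or M9 names in 5 members, and all 5 were lower in the M1 libraries. XIRP1, FLNC, FHL1, ENAH and DES fell, by 1.85-fold to 2.83-fold, in a fit with dosing group and name class together. All controls have M8 or M9 names, so these fold changes are estimated from the 12 dosed animals. Those were 4 M1 against 3 other multidose animals and 1 M1 against 4 other single dose animals. Means over the 12 M8 or M9 libraries, given below, include the controls. The share called, 5 of 35 (14.3%), is near that over all genes (14% called, 5.92% higher and 8.06% lower). In this fit the member count is therefore not a result about sarcomere genes as a set, and what follows describes which ones moved. The shares depended on the method and the fit, with 34.3% of members against 18.9% of all genes by DESeq2 and 42.9% of members against 28.5% of all genes by limma-voom. By edgeR without the filter on low counts they were 14.3% of members against 6.93% of all genes. With dosed animals only, edgeR gave 31.4% of members against 18% of all genes. With the name suffix as a covariate it gave 14.3% against 17.2%. No member passed among the 9 thin filament genes or the 5 thick filament and M-band genes. Of the 15 Z-disc genes 3 fell and 0 rose, and of the 4 stretch-response genes 2 fell and 0 rose. The member median was -0.18 on the log2 scale against -0.014 for all genes, and 10 of 35 members had a value above 0 (48.6% of all genes). At an unadjusted p under 0.05 there were 13 members, beside 29.9% of all genes.

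XIRP1 (ENSSSCG00000034015, chromosome 13, 23867476 to 23876850) measured 369.9, 322.8, 205.9 and 197.8 CPM in multidose 1 to 4 and 246.2 CPM in single dose 1, the 5 M1 libraries. The 7 other dosed animals ran from 396 to 763 CPM with a median of 569, and the controls are given above. Every M1 library was below every other library. M1 minus the others was -1.26 with an SE of 0.23 (edgeR adjusted p = 0.00396) on the log2 scale. FLNC (ENSSSCG00000016578, chromosome 18, 19759734 to 19787616) measured 700.2, 565, 523.3 and 527.6 CPM in multidose 1 to 4 and 439.4 CPM in single dose 1. It ran from 1075 to 1851 CPM with a median of 1460.5 in the other dosed animals and measured 873.4, 1669, 3781, 1633 and 964.4 CPM in the controls. Again no M1 library reached the lowest of the others, with vehicle control 3 far above all. The log2 difference came to -1.50 with an SE of 0.31 (edgeR adjusted p = 0.00649). FHL1 (ENSSSCG00000012699, chromosome X, 111309989 to 111367900) measured 724.1, 956.8, 774.1 and 996.8 CPM in multidose 1 to 4 and 552.1 CPM in single dose 1. The other dosed animals ran from 1309 to 2201 CPM with a median of 1499, and the controls measured 1287, 1784, 1898, 2171 and 1129 CPM. The 2 sets did not overlap for this gene either, and the log2 difference was -1.07 with an SE of 0.22 (edgeR adjusted p = 0.00720). Non-overlap was seen for these 3 members (all lower), and for 5.74% of all genes (3.01% lower).

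ENAH (ENSSSCG00000038646, chromosome 10, 13439772 to 13609347), an Ena/VASP protein that promotes actin elongation, measured 105, 70.2, 51.6 and 47.3 CPM in multidose 1 to 4 and 40.5 CPM in single dose 1. The other dosed animals ran from 87.3 to 213 CPM with a median of 119.9 and the controls measured 96.9, 159.1, 159.99, 145.3 and 70.7 CPM. Multidose 1 lay within the range of the others, so the sets overlapped. For ENAH the log2 difference was -1.24 with an SE of 0.27 (edgeR adjusted p = 0.00840). DES (ENSSSCG00000020785, chromosome 15, 121428539 to 121435426), desmin, the intermediate filament that ties Z-discs to each other and to the cell border, also fell. It had a mean of 7959.6 CPM (SD 2218, n = 5) in M1 libraries and a mean of 13344 CPM (SD 3472, n = 12) in the others, and the sets overlapped at vehicle control 5 (7359 CPM) and multidose 7 (8416 CPM). In the model the step was -0.89 with an SE of 0.27 (edgeR adjusted p = 0.0381) on the log2 scale.

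**Figure D4:**
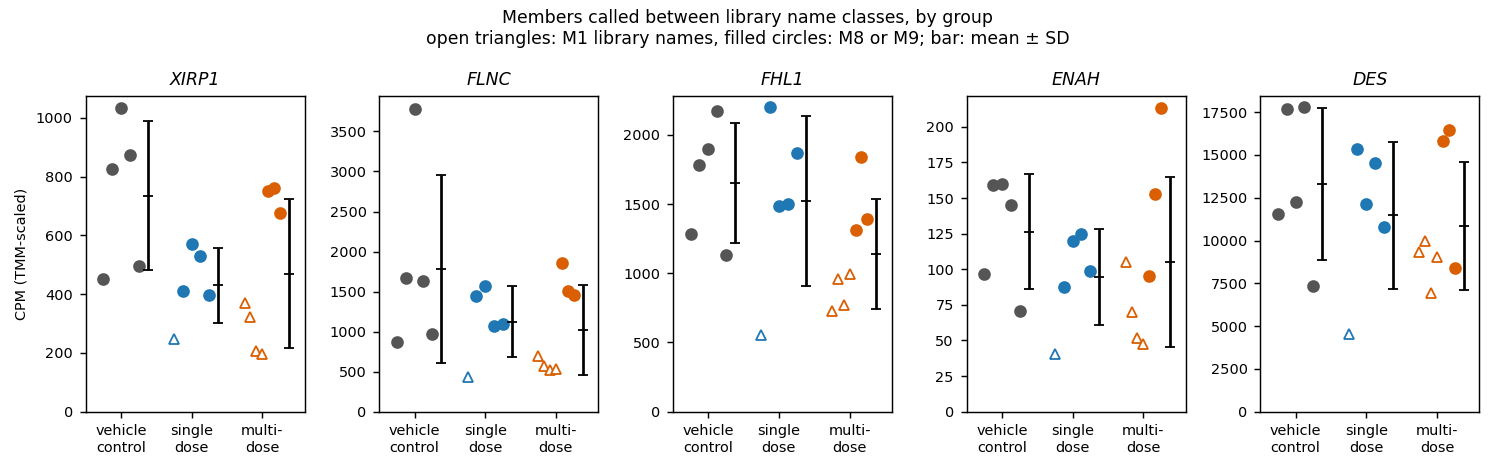
CPM of the 5 members that passed between library name classes, in every library by group; open triangles are M1 libraries, filled circles M8 or M9 libraries, and bars the group mean and SD. The triangles lie under all circles for XIRP1, FLNC and FHL1, and overlap with some circles for ENAH and DES.

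The calls differed in how far they depended on single animals. XIRP1, FLNC and ENAH passed in all 17 fits that left out 1 library. FHL1 did not pass without single dose 1 (edgeR adjusted p = 0.0552), and the count of members called was then 3 (8.57%, against 5.33% of all genes). DES did not pass without single dose 1 (edgeR adjusted p = 0.218), single dose 3 (0.0532) or single dose 4 (0.0517). The same held without multidose 1 (0.0564), multidose 3 (0.0810), multidose 4 (0.0517), multidose 5 (0.0895) or multidose 6 (0.104). Within the multidose group alone, 4 M1 against 3 other animals, FLNC stood at -1.46 with an SE of 0.16 (edgeR adjusted p = 0.0118) and XIRP1 at -1.40 with an SE of 0.23 (edgeR adjusted p = 0.0233). FHL1 stood at -0.80 with an SE of 0.19 (edgeR adjusted p = 0.0445) and PDLIM3 at -1.25 with an SE of 0.28 (edgeR adjusted p = 0.0405). In that fit 4 of the 34 members tested passed, beside 712 of 13572 genes. ENAH (-1.16 with an SE of 0.33, edgeR adjusted p = 0.0748) and DES (-0.61 with an SE of 0.25, edgeR adjusted p = 0.161) did not pass there. With the name suffix as a covariate DES did not pass either (-0.85, edgeR adjusted p = 0.0672). The suffix largely follows name class and depth, so that fit separates them poorly. Thinning every library to the total of the shallowest left the same 5 members called. Without the 4 libraries under 25000000 counts, which leaves multidose 4 as the lone M1 library, 0 passed. There FLNC stood at -1.59, XIRP1 at -1.87, ENAH at -1.69, FHL1 at -0.59 and DES at -0.58. That lone library is assumed to vary like the others.

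Among the members that did not pass, XIRP2, the larger Xin repeat gene, stood at -1.51 with an SE of 0.50 (edgeR adjusted p = 0.0556). It measured 155.9, 203.7, 91.2 and 278.5 CPM in multidose 1 to 4 and 74.3 CPM in single dose 1, and the other 12 animals ran from 146 to 777 CPM with a median of 457. The sets overlapped, with vehicle control 5 lowest among the others. PDLIM3 stood at -1.09 with an SE of 0.38 (edgeR adjusted p = 0.0657) and ANKRD1 at -0.94 with an SE of 0.34 (edgeR adjusted p = 0.0696). ANKRD1 measured 1154 CPM in single dose 1, the lowest of all animals, and 5559, 4289.9, 2427 and 3875 CPM in multidose 1 to 4. Multidose 3 also lay below the range of the other 12 animals, and multidose 1, 2 and 4 lay inside it (3782 to 8923 CPM). NEXN, nexilin, an actin-binding protein of the Z-disc, stood at -0.41 with an SE of 0.14 (edgeR adjusted p = 0.0524). These members were chosen after their values were seen. On the other side TNNI3 stood at 0.48 with an SE of 0.21 (edgeR adjusted p = 0.137). It had a mean of 8239.8 CPM (SD 432, n = 5) in M1 libraries and a mean of 5749 CPM (SD 1367, n = 12) in the others. The thick filament and M-band genes ran from -0.10 for MYBPC3 to 0.40 for MYOM3. The Z-disc genes not yet given ran from -0.55 for MYOT to 0.13 for CAPZA2. Among them the titin-capping gene TCAP stood at -0.37, the alpha-actinin gene ACTN2 at -0.21 and CSRP3, the muscle LIM protein, at -0.15. ACTC1 stood at 0.65, LMOD2 at -0.47, UNC45B at -0.58 and SMYD1 at -0.18.

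**Figure D5:**
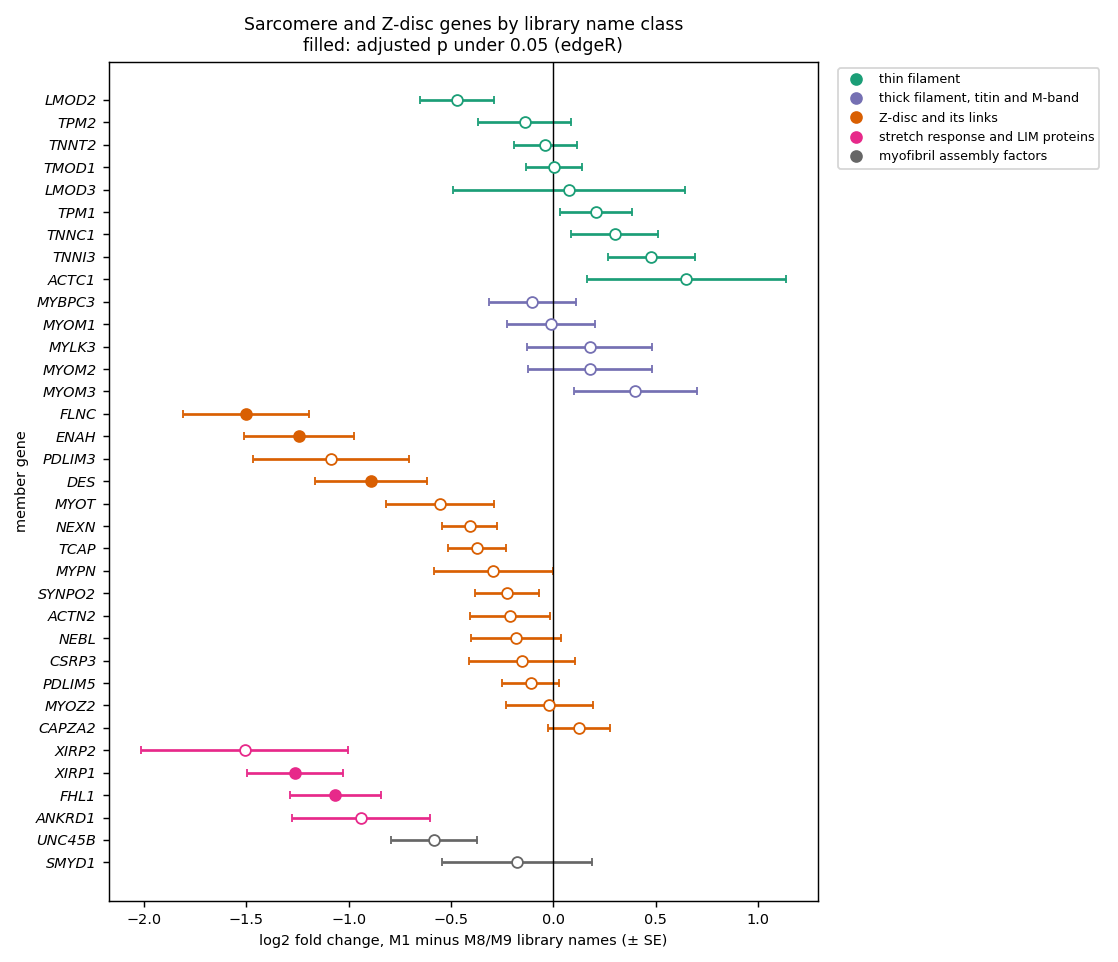
Log2 fold change and SE (edgeR, dosing group in the model) of each member between M1 and M8 or M9 libraries, coloured by role; filled points have an adjusted p under 0.05. Of the 15 Z-disc values 14 and all 4 stretch-response values lie left of 0, with upper-quartile scaling turning 1 Z-disc value to positive, while 6 of 9 thin filament values lie right of it.

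In 3 lists of related genes the calls were also all lower in M1 libraries. These lists were chosen with earlier results of these data known, so they are no independent support for the members. Of 32 other sarcomere and sarcolemma-link genes 4 fell and 0 rose, a share of 12.5%. Over all genes 14% were called, and 8.06% were called lower. Among them were VCL (vinculin, of the costamere, -0.79 with an SE of 0.19 and an edgeR adjusted p of 0.0123), NRAP (an anchoring protein of assembling myofibrils, -0.77 with an SE of 0.23 and an edgeR adjusted p of 0.0347) and DAG1 (dystroglycan, -0.85 with an SE of 0.24 and an edgeR adjusted p of 0.0297). Of 25 load-responsive regulators and targets 6 fell (24%) and 0 rose. These included the natriuretic peptide gene NPPA at -3.86 with an SE of 0.62 and an edgeR adjusted p of 0.00223, ANKRD2, the paralogue of ANKRD1 best known from skeletal muscle, at -2.51 with an SE of 0.65 and an edgeR adjusted p of 0.0204, and CCN2, connective tissue growth factor, at -1.48 with an SE of 0.45 and an edgeR adjusted p of 0.0369. NPPB, TEAD4 and GATA4 also fell. ANKRD2 had a mean of 5.31 CPM (SD 4.09, n = 5) in M1 libraries and a mean of 29.3 CPM (SD 15, n = 12) in the others. Of 11 myofibril chaperones 3 fell (27.3%) and 0 rose. BAG3, the cochaperone that with HSPB8 clears damaged filamin, had a mean of 86.4 CPM (SD 15.7, n = 5) in M1 libraries and a mean of 143 CPM (SD 30.2, n = 12) in the others. It fell by 0.81 on the log2 scale (edgeR adjusted p = 0.00542). HSPB8 fell by 0.80 (edgeR adjusted p = 0.00754) and HSPB1, a small heat shock protein, by 0.90 (edgeR adjusted p = 0.0349).

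Markers of other cell types were counted by name class too, beside 14% of all genes called (5.92% higher and 8.06% lower). Of 12 fibroblast markers 5 rose (41.7%) and 0 fell in M1 libraries. Their summed level ran from 5447 to 9617 CPM against 3398 to 7522 CPM. Of 11 smooth muscle markers 1 fell (9.09%) and 0 rose. It was the calponin gene CNN1 (-2.19 with an SE of 0.48 and an edgeR adjusted p of 0.00879). The summed smooth muscle level ran from 797 to 1126 CPM against 948 to 2106 CPM. DES is also expressed in smooth muscle, and ENAH in many cell types. Of 12 leukocyte markers 2 fell (16.7%) and of 12 endothelial markers 1 rose (8.33%). Summed leukocyte markers ran from 153 to 244 CPM against 143 to 379 CPM, and endothelial markers from 1156 to 1467 CPM against 981 to 1846 CPM. Of the 4 tested atrial markers 2 fell (NPPA and SLN) and 1 rose (KCNA5), a share called of 75%. Their summed level ran from 135 to 283 CPM in M1 libraries against 631 to 4930 CPM in the others, with no overlap. Of 4 tested adipocyte markers 1 rose (25%), and of 3 tested skeletal muscle markers 0 passed. The part of these markers, and of library depth, in the member values was not tested beyond the fits given. Name class cannot be told apart from anything else the M1 animals share.

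Whether the M1 difference was the same in both dosed groups rests on 1 single dose animal. In a model with that interaction, 0 members passed by edgeR (0% of all genes), and 1 had an unadjusted p under 0.05 (background 2.9%). That member was ANKRD1, for which the M1 effect in multidose animals minus that in single dose 1 was 1.66 with an SE of 0.59 (edgeR adjusted p = 0.99997).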

How the data were processed

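Per the submitters' processing notes, the tools named are HISAT2 2.1.0 and Subread 1.6.2, next to Trimmomatic 0.33, SAMtools 1.7 and FastQC 0.11.7, and the build was Sscrofa11.1. RNA was extracted with TRIzol and sequenced on an Illumina NextSeq, per the labels. The strand setting is not given in the sources used here, nor is the annotation release, so overlapping and antisense genes cannot be separated. The deposited table holds whole-number counts per Ensembl gene, used as deposited.

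Counts were filtered with filterByExpr, scaled with TMM and fitted to all 17 libraries with edgeR 4.0.16 in R 4.3.3 (robust quasi-likelihood, two-sided tests, Benjamini-Hochberg adjustment over all genes, threshold 0.05). The dosing model had group alone, and the name class model had group and name class. The scripts were tested on simulated data. CPM are TMM-scaled and not corrected for gene length, so levels were not compared between genes. Log2 CPM carry a prior count of 2, and the SE comes from the fold change and its F statistic. All 35 members were matched by symbol to RefSeq positions on Sscrofa11.1. No member symbol stood on more than 1 row, and no pair of libraries held identical counts.

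Named in each dosing comparison were the 4 members with the smallest p in each direction, and in the name class comparison every member that passed. Members and lists were chosen with earlier results of these data known. Of the other sarcomere genes that passed, 1 is not reported here. Alternatives included DESeq2 1.42.0 and limma-voom 3.58.1.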

Additional observations from a re-analysis of the deposited data

Results flagged for a closer look

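Of 105 member and group combinations examined, 8 held an animal whose log2 CPM lay far from the rest of its group. The criterion was a gap to the nearest animal, as a share of the group's range, above Dixon's 95% critical value, which chance alone exceeds in about 1 of 20 groups. Single dose 1, the M1 library of its group, was low for MYOT (233 CPM against 439.9 to 568 in the other single dose animals), DES (4539.7 CPM against 10796 to 15366), ANKRD1 (1154 CPM against 3891 to 6095) and FHL1 (552 CPM against 1488 to 2201). Multidose 4, the deepest of the M1 libraries, was low for MYBPC3 (1923 CPM against 3085 to 3687 in the other multidose animals), MYPN (41 CPM against 80.6 to 127) and SMYD1 (65.8 CPM against 184 to 309). MYPN encodes myopalladin, which binds nebulette and alpha-actinin. Vehicle control 4 was high for NEXN (584 CPM against 475 to 505 in the other controls).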

How the results depend on the processing

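In the 3 dosing comparisons the count of members called was 0 under every alternative run, and the member medians moved by less than the spread between animals. With 1 library left out, those medians ran from -0.049 to 0.064 (multidose against control), -0.13 to 0.047 (single dose against control) and -0.032 to 0.084 (multidose against single dose), and the counts stayed at 0. With name class as a covariate, FHL1 turned to 0.023 for multidose against control and 0.033 against single dose, and XIRP2 to 0.22. The cause was not tested. Over all genes DESeq2 called 8 (multidose against control) and 10 (single dose against control) where edgeR called 0, and no other alternative called more than 1.

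Between M1 and M8 or M9 libraries 5 members were called, and the same 5 were called under RLE scaling, upper-quartile scaling or thinning. They were also called without the filter on low counts (14.3% of members against 6.93% of 25296 genes, low-count ones included). DESeq2 called 12 (34.3% of members against 18.9% of all genes), limma-voom 15 (42.9% of members against 28.5% of all genes), a fit of dosed animals only 11 (31.4% of members against 18% of all genes) and a fit without group 9 (25.7% of members against 23.8% of all genes). Without the libraries under 25000000 counts, where the M1 class is 1 library, the count was 0 and the median -0.48, beside -0.18. With the name suffix as a covariate the median was -0.36, and DES did not pass. The suffix largely follows name class, and the reason for that shift was not tested. Leaving out 1 library gave 3 to 6 members called (8.57% to 17.1%, against 5.33% to 17.1% of all genes) and medians from -0.23 to -0.12. Animals share only a replicate number across groups: of 15 same-number pairs, 4 had deviations from the group mean correlated over 0.1 (all pairs from -0.22 to 0.41). The highest pair was multidose 1 with single dose 1, which both have M1 names. With a replicate block 0 members and 11 genes were called, and the block changed no member call in the dosing comparisons. Over all genes the count of 2220 became 4525 with limma-voom, 3783 without group, 712 in multidose animals alone and 10 without the shallow libraries. It was 858 without single dose 1, 1247 without multidose 6 and 1450 without multidose 5. The cause was not tested. A correction for protein length was not run, because no lengths were at hand. The LMOD3 values are limited by depth.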
